A study of Homo sapiens with 12 samples.

Results

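The mRNA levels of 40 genes of S phase and DNA replication were described in TPC1, a cell line from a human papillary thyroid carcinoma, and in 3 Dicer1 (+/-) clones derived from it, D11, WB1 and TD5. The 40 genes were chosen by name from a table of 58302 genes, and all 40 were found in it and passed the filter on low values. The TPC1 libraries were wild type and untreated. The clones carried 1 disrupted and 1 wild-type allele of DICER1, the ribonuclease that cuts microRNA precursors, after transient transfection of a CRISPR/Cas9 plasmid with a guide against exon 11. Each clone was grown from a single sorted cell, so that a difference between TPC1 and a clone cannot be told apart from a difference between that clone and other cells of the line. Each line had 3 RNA-seq libraries, and because the labels do not say whether these came from separate cultures, the p-values measure only the spread between these libraries.

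Before a cell copies its DNA, origins of replication are licensed in G1 by loading of the MCM2-7 ring, the core of the replicative helicase. In S phase CDC45 and GINS join the ring, primase and DNA polymerases synthesise DNA on a sliding clamp of PCNA, ribonucleotide reductase and thymidylate synthase supply nucleotides, and histone chaperones rebuild chromatin behind the fork. Many of these genes are transcribed in waves at the G1/S transition under the E2F transcription factors, which is why they serve as markers of S phase. In bulk RNA, fewer cells in S phase and less RNA of these genes per cell cannot be told apart. By staining for BrdU, taken up during DNA synthesis, the authors reported no difference in S phase cells between TPC1 and the clones. Whether this held for the cells sequenced here was not tested.

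The promoters of these genes are shown first, because E2F-like words stood in many of them. Of the 40 genes, 32 had an entry in the RefSeq promoter table (GRCh38.p14), and MCM4, MCM5, POLD3, DSCC1, RPA2, ATAD2, WDR76 and E2F8 did not. The 250 bases before the start were searched on both strands for the E2F-like words TTCCCGC, or TTCGCGC, or TTGGCGC, or also TTGCCGC, then for the CCAAT box and for the CHR word TTTGAA, the element known from genes of G2 and mitosis. The windows below are from genes described later as lower in WB1 (MCM3, MCM6, MCM7, GINS2, DTL, UNG, HELLS) or higher in D11 (PCNA, UHRF1, BLM), read 5′ to 3′ on the strand of the gene, with the E2F-like word in capitals.
MCM3, minus strand, chr6:52284749-52284775: acctttggtgGCGGGAAgagttcggaa
MCM6, minus strand, chr2:135876513-135876539: gtcaggtttgGCGCGAAatctccagct
MCM7, minus strand, chr7:100101398-100101415: ggggcgacgtTTCGCGCc
GINS2, minus strand, chr16:85688969-85688995: tctcgccgtgGCGGGAAaacggcggcc
DTL, plus strand, chr1:212035731-212035747: tgacgtcagtTTGGCGC
UNG, plus strand, chr12:109097579-109097596: cgcgggccgcTTGGCGCc
HELLS, plus strand, chr10:94545771-94545787: tgacaggattTTCCCGC
PCNA, minus strand, chr20:5126665-5126691: agcgtcagggGCGGGAAaaggcgtgcg
UHRF1, plus strand, chr19:4909477-4909500: ccgagttttcGCGGGAAaaaaatc
BLM, plus strand, chr15:90717262-90717288: gcctgaggggGCGGGAAcagatgtccg
At least 1 E2F-like word stood in 17 of the 32 promoters (53.1%), against 11% of all 27305 promoters and 17.5% of the 10174 promoters of genes tested here. MCM6 held 4 of them, and 7 of the 32 genes (21.9%) held 2 or more, against 1.39% of all promoters. CCAAT stood in 68.8% of the members' promoters, 33% of all and 34.7% of those of genes tested. TTTGAA stood in 6.25% of the members' promoters (2 of 32), 13.6% of all and 8.37% of those of genes tested. Among G2 and mitosis genes, by comparison, TTTGAA stood in 48.9% of the promoters and an E2F-like word in 19.1%. Of the 13 matched genes called lower in WB1 than in TPC1 below, 8 held an E2F-like word, as did 9 of the 19 other matched members. Among those 13, CDC6, MCM2, CHAF1B, RFC2 and EXO1 held none in this window. USP1, higher in D11 and WB1, also held none. Windows are shown only for genes that held a word. A match describes the letters only.

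The values are reads per gene that the authors scaled to 20000000 aligned reads per library, and they are called scaled reads here. The library depth estimated from the steps between values was 12700000 to 21020000 reads, and the members ranged from 171 to 10403 scaled reads, against 2.85 to 4.72 scaled reads for 3 reads, a limit that covers counting error only. DICER1 had 1360, 1129 and 1101 scaled reads in TPC1, 977, 1051 and 1093 in D11, 643, 627 and 809 in TD5, and 881, 939 and 815 for WB1. All clone libraries lay below those of TPC1, D11 by the least. The log2 fold change against TPC1 was -0.77 ± 0.10 (SE) for TD5 (limma, adjusted p = 9e-05), -0.43 ± 0.10 for WB1 (adjusted p = 0.00404) and -0.19 ± 0.10 for D11, which missed the threshold (adjusted p = 0.138) but passed it at -0.41 with a correction for GC content and at -0.36 with one for transcript length. Mitochondrially encoded genes took 1.33% to 1.45% of the reads in TPC1, 2.07% to 2.18% in D11, 1.91% to 2.22% in WB1 and 1.67% to 1.95% for TD5, so that every clone library lay above those of TPC1. Of the thyroid markers, PAX8 had 7248 to 9879 scaled reads, whereas TSHR, NKX2-1 and SLC5A5 were at 0 in all 12 libraries. The epithelial markers were split. KRT8 had 10280 to 16274 scaled reads, KRT18 5237 to 7775 and KRT7 209 to 308, whereas KRT19 had at most 6 and EPCAM at most 5. The defining markers of blood, endothelial, stromal and liver cells that were examined (PTPRC, CD3E, CD79A, PECAM1, VWF, DCN and ALB) had at most 8, while CD68 had 921 to 1514.

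Before the lines are compared, the libraries within them have to be. On a log2 scale, relative to the mean of TPC1, the median of the 40 genes was 0.13 in TPC1 replicate 1, -0.13 in replicate 2 and -0.00 in replicate 3. The gene was above the TPC1 mean for 38 of the 40 in replicate 1 and for 2 of the 40 in replicate 2, so that the TPC1 libraries differed among themselves by about as much as some lines did. The D11 medians were 0.25, 0.29 and 0.20, all above those of TPC1. Those of WB1 were 0.01, -0.26 and -0.19, with replicate 1 within the range of TPC1 and the other 2 below it. Those of TD5 were 0.03, 0.07 and 0.00, within that range. Over the 780 pairs of members, the median Pearson correlation across the 12 libraries was 0.66, and it was 0.56 after the mean of each line had been removed, with 92% of pairs above 0. The same value within lines was 0.55 for 55 genes of G2 and mitosis, 0.34 for 58 other replication genes and 0.01 for a set of 1603 genes taken evenly from all those tested, and since the pairs share libraries and their depth, these are descriptions.

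**Figure D1:**
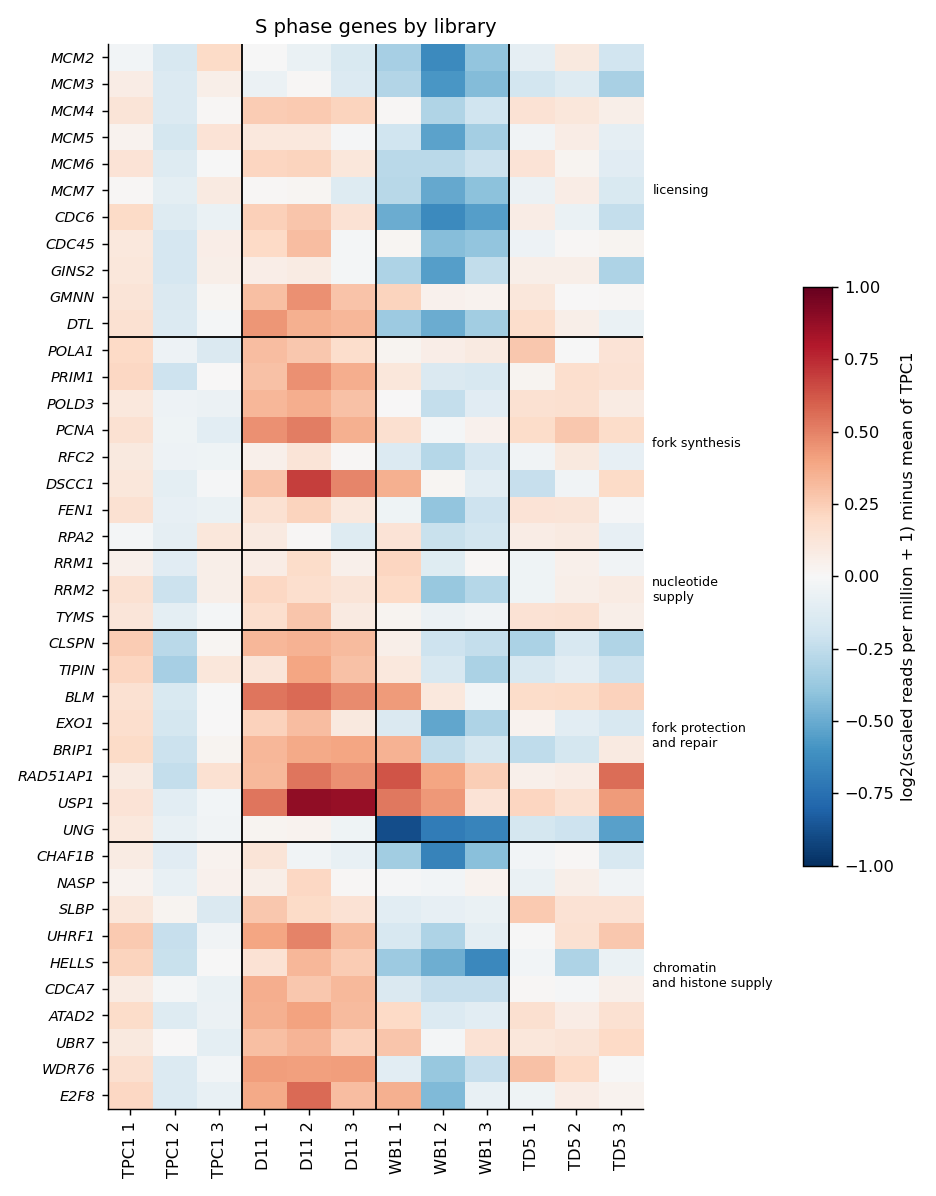
Level of each of the 40 S phase genes (rows, by role) in each of the 12 libraries (columns), as log2(scaled reads per 1000000 + 1) minus the mean of the 3 TPC1 libraries, from blue (lower) to red (higher). D11 is mostly red, WB1 replicates 2 and 3 are mostly blue (6 and 8 of the 40 genes are above the TPC1 mean), and TPC1 replicate 2 is paler blue for 38 of the 40 genes.

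The line means fell in an order that few other genes had. D11 was the highest of the 4 lines for 36 of the 40 genes (90%, against 31.8% of all 16027 genes tested), and WB1 was the lowest for 27 (67.5%, against 17.8%). For 23 genes both held (57.5%, against 4.09%). D11 was the lowest line for none of the 40 genes, and WB1 was the highest for none. Per transcript length, MCM4 was the most abundant member in TPC1 (106.9 scaled reads per 1000000 per kb), followed by the thymidylate synthase TYMS (104.8) and PCNA (96.9), and the helicases BLM (3.04) and BRIP1 (2.65) were the least.

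Compared with TPC1, D11 had higher levels of 21 of the 40 genes and lower levels of none (limma on log2(scaled reads per 1000000 + 1), Benjamini-Hochberg adjusted p under 0.05 over all genes tested). Over all genes tested, 19.9% were called higher and 13.4% lower. At an unadjusted p under 0.05, 25 members were higher and 0 lower. The median log2 fold change was 0.25 for the members and 0.05 for all genes, with 36 members positive and 4 negative. The changes were small. Only USP1 also reached 1.5-fold, a size reached by 4.84% of all genes in either direction.

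By role, the genes that rose in D11 were spread over all groups, and the difference between roles was not tested. Of the 8 genes of fork synthesis 5 rose, as did 5 of the 8 genes of fork protection and repair, 7 of the 10 genes of chromatin and histone supply (CHAF1B, NASP, SLBP, UHRF1, HELLS, CDCA7, ATAD2, UBR7 and WDR76, with the E2F repressor E2F8 grouped with them, which was among the 7), and 1 of the 3 genes of nucleotide supply (TYMS). Of the 11 licensing genes 3 rose, namely MCM4, DTL and GMNN, the inhibitor that blocks a second round of licensing. The other MCM subunits did not pass the test, with log2 fold changes between -0.08 for MCM2 and 0.18 for MCM6.

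USP1, the enzyme that removes ubiquitin from PCNA and FANCD2 (chr1:62436297-62451804, plus strand), changed most. It had 1255, 1058 and 1115 scaled reads in TPC1 and 1662, 2123 and 2096 in D11. The D11 libraries all lay above those of TPC1, and replicate 1 was the lowest of them. The log2 fold change was 0.76 ± 0.11 (SE; limma, adjusted p = 0.00012), and USP1 was called under all 24 alternatives other than a fold minimum, which it passed without correction, while its value with the GC correction was 0.50, under 1.5-fold.

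PCNA, the sliding clamp, had 2736, 2397 and 2288 scaled reads in TPC1 and 3397, 3516 and 3161 in D11, without overlap, a log2 fold change of 0.44 ± 0.07 (limma, adjusted p = 0.00037). BLM, a RecQ helicase that dissolves recombination intermediates, had 355, 285 and 318 scaled reads in TPC1 and 471, 482 and 449 in D11, again without overlap, a log2 fold change of 0.53 ± 0.11 (adjusted p = 0.00203). UHRF1, which brings the maintenance methyltransferase to newly copied DNA, had 1289, 913 and 1047 scaled reads in TPC1 and 1419, 1522 and 1343 in D11 (0.40 ± 0.10, adjusted p = 0.00802). These 3 genes, too, were called under all 24 alternatives of that kind. The groups overlapped in none of them, although for UHRF1 the highest TPC1 library (1289) lay close to the lowest D11 library (1343).

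Other genes that rose were less firm. DSCC1, a subunit of the alternative clamp loader, had 335, 286 and 305 scaled reads in TPC1 and 380, 510 and 440 in D11 (log2 fold change 0.49 ± 0.13, limma, adjusted p = 0.0109). Without D11 replicate 2, its highest library, the value was 0.39 and the call was lost. RAD51AP1, a gene of homologous recombination, had 331, 260 and 348 scaled reads in TPC1 and 394, 459 and 434 in D11 (0.44 ± 0.14, adjusted p = 0.0224). It lost the call without TPC1 replicate 2 (0.32), D11 replicate 2 (0.39) or D11 replicate 3 (0.43). MCM4 had 9462, 7881 and 8723 scaled reads in TPC1 and 10349, 10403 and 10119 in D11 (0.25 ± 0.07, adjusted p = 0.0181), with no overlap, but lost the call without TPC1 replicate 2 (0.18) or D11 replicate 2 (0.24). CLSPN, the adaptor of the replication checkpoint, had 960, 660 and 812 scaled reads in TPC1 and 1014, 1025 and 1001 in D11 (0.33 ± 0.11, adjusted p = 0.0272) and lost the call without TPC1 replicate 2 (0.19), TPC1 replicate 3 (0.34) or any 1 of the D11 libraries (0.32 to 0.34). In all, 10 of the 21 calls stood whichever single library was left out, and the count fell to 12 without TPC1 replicate 2 and to 11 without D11 replicate 2.

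GC content moved with the D11 result. The transcripts of the members had a median GC content of 43.8%, against 48.4% for the genes tested, and in D11 against TPC1 the median log2 fold change of all genes, split at the quartiles of GC content, was 0.25 in the bin lowest in GC, 0.11 and -0.04 in the next bins and -0.12 in the highest. After a correction for this trend, 6 of the 40 genes were called higher (MCM4, GMNN, PCNA, USP1, BLM and UHRF1), when 10.7% of all genes were, and the median of the members was 0.13. The 6 were 2 of the 11 licensing genes, 1 of 8 of fork synthesis, 2 of 8 of fork protection and repair and 1 of 10 of chromatin and histone supply. With mitochondrially encoded genes left out of the library sum and no GC correction, 22 members were higher in D11. Without the correction the members in the lowest bin had a median of 0.37 (11 genes). The part of GC content in the result beyond this correction was not tested.

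In WB1, by contrast, 14 of the 40 genes were lower than in TPC1 and 2 were higher, when 12.3% of all genes were called lower and 18.6% higher. The median log2 fold change was -0.14, against 0.06 for all genes, with 31 members negative and 9 positive. One member, UNG, also fell by 1.5-fold or more, as 4.99% of all genes changed by in either direction. The licensing genes accounted for 8 of the 14 (MCM2, MCM3, MCM5, MCM6, MCM7, CDC6, GINS2 and DTL), out of 11. In the other groups 1 of 8 fork synthesis genes (RFC2, of the clamp loader), 2 of 8 genes of fork protection and repair (UNG and EXO1), 3 of 10 genes of chromatin and histone supply (CHAF1B, HELLS and CDCA7) and none of the 3 genes of nucleotide supply fell. Of the 16 calls in either direction, 9 stood whichever single library was left out. RFC2 (limma, adjusted p = 0.0486) lost the call without any 1 of the TPC1 or WB1 libraries. GINS2, EXO1 and CDCA7 lost theirs without TPC1 replicate 1 or WB1 replicate 2, among others.

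The MCM ring showed the pattern subunit by subunit. MCM2 had 2790, 2530 and 3234 scaled reads in TPC1 and 2247, 1819 and 2152 in WB1, a log2 fold change of -0.46 ± 0.09 (limma, adjusted p = 0.00219). MCM3 had 3994, 3450 and 3951 scaled reads in TPC1 and 3095, 2527 and 2797 in WB1 (-0.44 ± 0.08, adjusted p = 0.000822). MCM5 had 3195, 2754 and 3436 scaled reads in TPC1 and 2707, 2141 and 2453 in WB1 (-0.36 ± 0.09, adjusted p = 0.00548). In all 3 the WB1 libraries lay below every TPC1 library, with WB1 replicate 2 the lowest. MCM7 had 2669, 2485 and 2820 scaled reads in TPC1 and 2191, 1855 and 1990 in WB1 (-0.40 ± 0.08, adjusted p = 0.00114). MCM6 had 3040, 2527 and 2765 scaled reads in TPC1 and 2300, 2290 and 2383 in WB1 (-0.25 ± 0.07, adjusted p = 0.0161). MCM4, with 8746, 7022 and 7535 scaled reads in WB1, overlapped with TPC1 and did not pass the test (-0.16 ± 0.07, adjusted p = 0.102). Of the subunits that fell, MCM6 lost the call without TPC1 replicate 1 (-0.18) or WB1 replicate 2 (-0.24), and the other 4 kept it under all 24 alternatives, although none passed the fold minimum.

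CDC6, the loader of the MCM ring (chr17:40287879-40304657, plus strand), had 1674, 1343 and 1402 scaled reads in TPC1 and 1035, 937 and 994 in WB1, a log2 fold change of -0.56 ± 0.09 (limma, adjusted p = 0.000274). UNG, the glycosylase that removes uracil from DNA (chr12:109097597-109126725, plus strand), had 1509, 1336 and 1373 scaled reads in TPC1 and 752, 857 and 882 in WB1 (-0.75 ± 0.09, adjusted p = 2.88e-05). For both genes the highest WB1 library lay well below the lowest TPC1 library. HELLS, a chromatin remodeller that acts with CDCA7, had 901, 656 and 769 scaled reads in TPC1 and 594, 544 and 486 in WB1 (-0.50 ± 0.11, adjusted p = 0.00315). CHAF1B, a subunit of the chaperone that deposits histones behind the fork, had 1032, 897 and 999 scaled reads in TPC1 and 761, 607 and 725 in WB1 (-0.48 ± 0.09, adjusted p = 0.0011). DTL, the receptor by which a ubiquitin ligase recognises CDT1 on PCNA (chr1:212035553-212107400, plus strand), had 1999, 1633 and 1774 scaled reads in TPC1 and 1392, 1267 and 1405 in WB1 (-0.40 ± 0.08, adjusted p = 0.00147). In none of these 5 genes did the libraries of WB1 and TPC1 overlap.

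The 2 members that rose in WB1, USP1 and RAD51AP1, both belong to fork protection and repair. USP1 had 1650, 1544 and 1258 scaled reads in WB1 (log2 fold change against TPC1 0.37 ± 0.11, limma, adjusted p = 0.0177), all above TPC1, although the lowest of them (1258) barely exceeded the highest TPC1 library (1255). RAD51AP1 had 492, 415 and 372 scaled reads in WB1 (0.42 ± 0.14, adjusted p = 0.0277), also without overlap. Leaving out TPC1 replicate 2 (0.31), TPC1 replicate 3 (0.35), WB1 replicate 1 (0.29) or WB1 replicate 2 (0.33) ended the USP1 call. Leaving out TPC1 replicate 2 (0.30), WB1 replicate 1 (0.32) or WB1 replicate 2 (0.44) ended that of RAD51AP1, and the GC correction ended both.

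The fall in WB1 was larger, not smaller, after correction for GC content. The correction gave 22 genes lower and none higher, when 13.9% of all genes were lower and 12.3% higher, with a median of -0.25. All 14 genes that were lower without the correction were lower with it, and MCM4, POLD3, PRIM1, FEN1, RRM2, SLBP, ATAD2 and WDR76 were added. Without the correction, the count of 14 became 9 without TPC1 replicate 1 and also 9 without WB1 replicate 2. It was 18 without WB1 replicate 1, the library whose members lay nearest to TPC1.

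In TD5 a single gene differed from TPC1. UNG had 1243, 1211 and 956 scaled reads in TD5, below all TPC1 libraries, a log2 fold change of -0.31 ± 0.09 (limma, adjusted p = 0.0349). The call was lost without TPC1 replicate 1 (-0.26), TPC1 replicate 3 (-0.33) or TD5 replicate 3 (-0.19), the lowest library, and in the fit with replicate number as a block. No gene was called higher by limma, and at an unadjusted p under 0.05 3 members were higher and 3 lower. Over all genes 6.57% were lower and 5.32% higher, and 2.6% were called with at least 1.5-fold, which no member was. The median of the members was 0.02 and that of all genes 0.00, with 22 members positive and 18 negative. With the GC correction PCNA, USP1 and SLBP, the protein that binds the stem-loop of histone mRNA, were higher (3 members, against 8.47% of all genes).

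**Figure D2:**
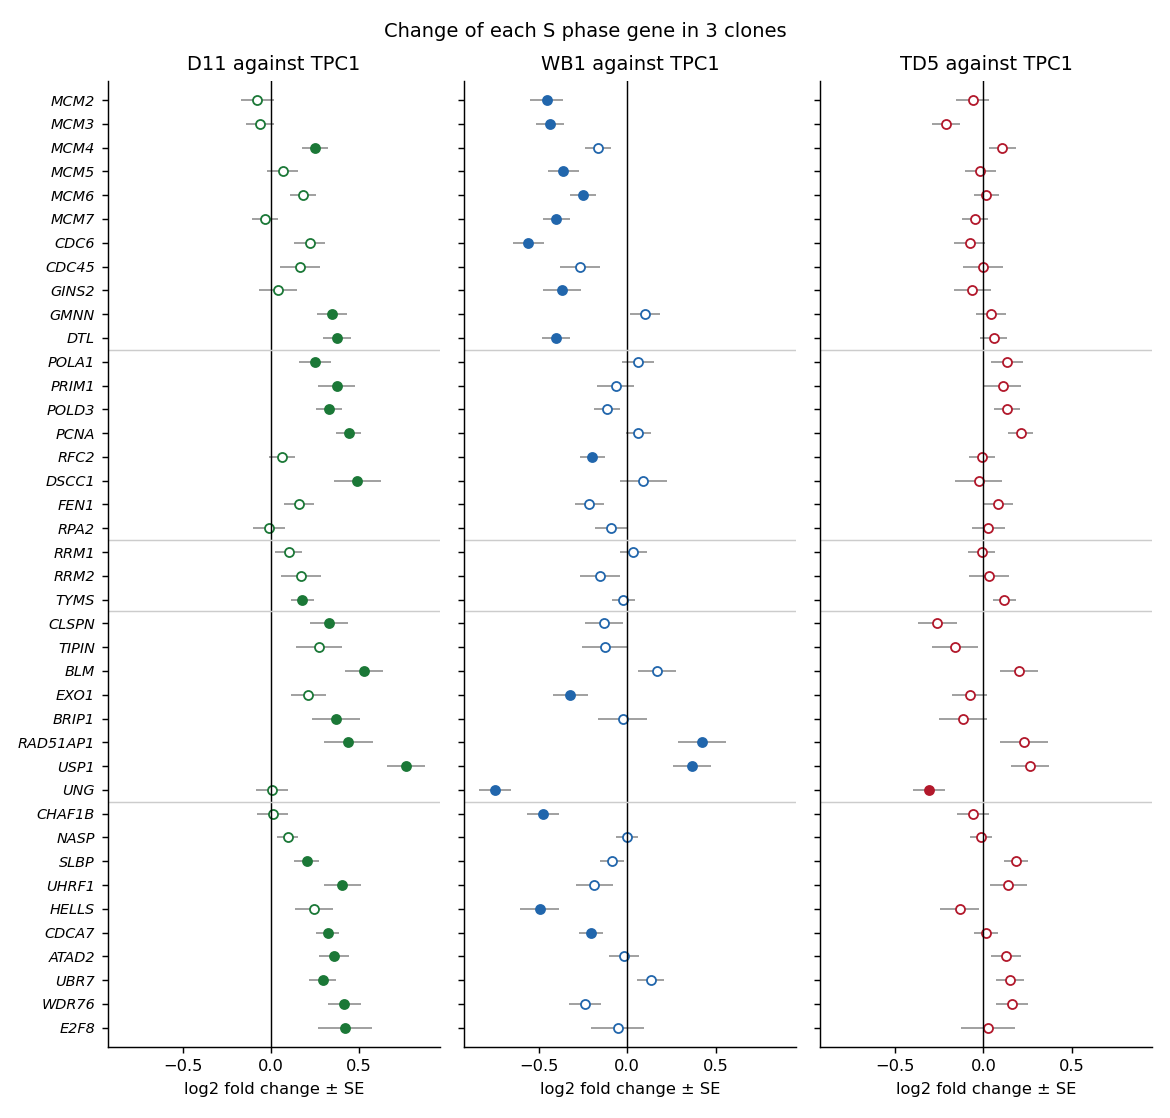
Log2 fold change (horizontal axis, with SE) of each S phase gene in D11, WB1 and TD5 against TPC1, by role as in the plot of levels, with filled points for an adjusted p under 0.05. Filled points lie to the right in D11 (21 genes), mostly to the left in WB1 (14 lower, 2 higher) and are limited to UNG in TD5.

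Since the 3 comparisons share the TPC1 libraries, the clones were also compared directly. The largest contrast was between WB1 and D11, with no TPC1 library in the difference. All 40 genes had a negative log2 fold change in WB1 against D11, 27 were called lower and none higher, when 3.42% of all genes were called lower and 4.65% higher. At an unadjusted p under 0.05, 35 were lower and 0 higher. The median was -0.40, against -0.00 for all genes. In this comparison 6 members passed 1.5-fold (CDC6, DTL, UNG, HELLS, WDR76 and UHRF1), as 2.85% of all genes did in either direction. By role, 10 of 11 licensing genes, 5 of 8 genes of fork synthesis, 5 of 8 of fork protection and repair and 7 of 10 of chromatin and histone supply were lower, and none of the 3 of nucleotide supply.

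CDC6 had 1737, 1781 and 1622 scaled reads in D11, against 1035, 937 and 994 in WB1, a log2 fold change of -0.78 ± 0.09 (limma, adjusted p = 1.32e-05). DTL had 2441, 2302 and 2261 scaled reads in D11 and 1392, 1267 and 1405 in WB1 (-0.78 ± 0.08, adjusted p = 3.81e-06). UNG had 1429, 1441 and 1359 scaled reads in D11 and 752, 857 and 882 in WB1 (-0.75 ± 0.09, adjusted p = 2.67e-05). In each of these the lowest D11 library was at least 1.5 times the highest WB1 library. HELLS had 850, 973 and 923 scaled reads in D11 and 594, 544 and 486 in WB1 (-0.74 ± 0.11, adjusted p = 0.000227). WDR76, a protein with WD repeats, had 1098, 1091 and 1099 scaled reads in D11 and 759, 623 and 691 in WB1 (-0.65 ± 0.09, adjusted p = 0.000141). UHRF1 had 959, 863 and 1003 scaled reads in WB1, against 1343 to 1522 in D11 (-0.59 ± 0.10, adjusted p = 0.00125).

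All 6 MCM subunits were lower in WB1 than in D11. Their log2 fold changes ran from -0.37 ± 0.08 for MCM7 (limma, adjusted p = 0.00452) to -0.43 ± 0.07 for MCM6 (adjusted p = 0.000822), and MCM2 lost the call without D11 replicate 1 (-0.34), D11 replicate 2 (-0.37) or WB1 replicate 2 (-0.29). PCNA was lower as well (-0.38 ± 0.07, adjusted p = 0.00215). In this comparison the GC trend was small, with a median of -0.04 for all genes in the bin lowest in GC and 0.01 in the highest. All 27 calls were kept with the GC correction, which gave 32 lower, when 4.99% of all genes were. Without the correction, leaving out D11 replicate 2 or WB1 replicate 2 each gave 17, and 16 of the 27 calls stood whichever single library was left out. USP1 (-0.40 ± 0.11, adjusted p = 0.0293), BLM (-0.36 ± 0.11, adjusted p = 0.0477) and CLSPN (-0.46 ± 0.11, adjusted p = 0.012) were among those lost: without WB1 replicate 3 their values were -0.28, -0.26 and -0.41.

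TD5 lay between the other clones for most members. Against D11, 14 genes were lower in TD5 and none higher, when 14.8% of all genes were lower and 8.43% higher, with a median of -0.20 against -0.05 for all genes. Unadjusted, 21 members were lower and 0 higher at p under 0.05 (limma). Of the 8 genes of fork protection and repair, 7 were lower (CLSPN, TIPIN, BLM, EXO1, BRIP1, USP1 and UNG), as were 3 of the 11 licensing genes. CLSPN was the only member to pass 1.5-fold, as 3.99% of all genes did. It had 638, 715 and 648 scaled reads in TD5, against 1014, 1025 and 1001 in D11, far from overlapping (-0.59 ± 0.11, limma, adjusted p = 0.00116). The GC trend ran through this comparison too, and with the correction 5 genes were lower (UNG, CLSPN, DSCC1, USP1 and UHRF1), when 9.22% of all genes were. With no GC correction, the count was 4 without D11 replicate 2 and 9 without D11 replicate 1 or TD5 replicate 2.

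Against WB1, 16 genes were higher in TD5 and none lower, when 4.52% of all genes were higher and 9.12% lower, with a median of 0.20 against -0.05 for all genes. Unadjusted, 22 members were higher and 0 lower at p under 0.05 (limma). None passed 1.5-fold, which 2.33% of all genes did. The 16 included 7 of the 11 licensing genes (MCM2, MCM4, MCM5, MCM6, MCM7, CDC6 and DTL) and 6 of the 10 genes of chromatin and histone supply. CDC6 had 1546, 1401 and 1238 scaled reads in TD5, above the 937 to 1035 of WB1 (0.48 ± 0.09, limma, adjusted p = 0.00211). UNG was higher in TD5 than in WB1 (0.44 ± 0.09, adjusted p = 0.00537) and lower than in D11 (-0.31 ± 0.09, adjusted p = 0.0195), the latter lost without D11 replicate 1 (-0.30), D11 replicate 2 (-0.30) or TD5 replicate 3 (-0.20). With the GC correction 24 genes were higher, all 16 among them, when 6.95% of all genes were. With no GC correction, the count was 5 with WB1 replicate 2 left out, 9 with TD5 replicate 1 left out and 8 with TD5 replicate 2 left out. Without WB1 replicate 2 the calls of MCM2 (0.30), MCM4 (0.20), MCM5 (0.25) and MCM6 (0.26) were among those lost.

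Across the clones, 7 members were called in no comparison with TPC1, namely CDC45, FEN1, RPA2, RRM1, RRM2, TIPIN and NASP. For DTL the log2 fold change against TPC1 was 0.37 for D11 and -0.40 for WB1, and for CDCA7 it was 0.32 and -0.20, all past the test. With the GC correction the D11 values were 0.18 for DTL and 0.14 for CDCA7, and neither was called, while both stayed lower in WB1. The WB1 call of CDCA7 was lost without TPC1 replicate 1 (-0.16), TPC1 replicate 2 (-0.21), WB1 replicate 2 (-0.19) or WB1 replicate 3 (-0.19). The large subunit of ribonucleotide reductase, RRM1, was among the steadiest members, with 3680 to 4128 scaled reads in TPC1, 4107 to 4508 in D11, 3641 to 4618 in WB1 and 3847 to 4120 for TD5, and its groups overlapped. Within lines, the SD on the log2 scale ran from 0.05 for CDCA7 to 0.23 for E2F8. Of the 40 genes, 14 overlap a gene on the other strand (AP4M1 with MCM7 and ENOSF1 with TYMS, for example). On the same strand 8 overlap a gene, and 9 have pseudogenes named after them (PCNA, RPA2 and RRM2 with 3 each). Their values are uncertain to that extent. For overlaps on the other strand, this is because the strand setting of the counting is not given in the sources used here.

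The wider replication machinery was examined with 58 other genes of replication. Of these, 22 rose and 1 fell in D11 against TPC1, 12 fell and 7 rose in WB1, and 5 rose and none fell in TD5. Set against all genes, the shares higher were 37.9% against 19.9% in D11, 12.1% against 18.6% in WB1 and 8.62% against 5.32% in TD5, and the share lower in WB1 was 20.7% against 12.3%. These counts and the values below were not corrected for the GC trend seen in D11. In D11 the largest changes were DNA2, a nuclease that trims flaps (0.55 ± 0.11, limma, adjusted p = 0.00236), DCK, a salvage kinase for nucleosides (0.53 ± 0.10, adjusted p = 0.00175), and RFC4, of the clamp loader (0.52 ± 0.09, adjusted p = 0.000483). In WB1 they were CDT1, the partner of CDC6 in licensing (-0.47 ± 0.11, limma, adjusted p = 0.00631), the thymidine kinase TK1 (-0.44 ± 0.08, adjusted p = 0.0011) and MCM8, a helicase outside the MCM2-7 ring (0.40 ± 0.10, adjusted p = 0.00896). CDT1 had 515, 456 and 565 scaled reads in TPC1 and 351, 319 and 430 in WB1, without overlap. In TD5 they were CHTF18, of the alternative clamp loader (0.53 ± 0.13, limma, adjusted p = 0.0113), the helicase RECQL4 (0.41 ± 0.10, adjusted p = 0.0178) and GINS1 (0.40 ± 0.11, adjusted p = 0.0242).

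Among 35 tested genes that control the G1/S transition, 15 rose and 7 fell in D11, 13 fell and 8 rose in WB1, and 7 fell and 5 rose in TD5. The shares higher were 42.9% in D11, 22.9% in WB1 and 14.3% in TD5, against 19.9%, 18.6% and 5.32% of all genes. The shares lower were 20%, 37.1% and 20%, against 13.4%, 12.3% and 6.57%. The share higher in WB1 lay near that of all genes. Here, too, counts and values were without the GC correction. In WB1 the largest changes were CCNE1, cyclin E1, with 308, 264 and 249 scaled reads in TPC1 and 147, 145 and 146 in WB1 (-0.82 ± 0.10, limma, adjusted p = 2.05e-05), the activator E2F1, with 692, 572 and 647 in TPC1 and 409, 392 and 385 in WB1 (-0.66 ± 0.09, adjusted p = 0.00011), and the phosphatase CDC25A (-0.65 ± 0.11, adjusted p = 0.000367). In D11 they were E2F7, a repressor of the E2F family, with 904, 907 and 793 scaled reads in TPC1 and 1574, 1622 and 1743 in D11 (0.91 ± 0.09, limma, adjusted p = 1.73e-06), LIN9 of the DREAM and MuvB complex (0.66 ± 0.16, adjusted p = 0.00678) and the CDK inhibitor CDKN1C (-0.64 ± 0.15, adjusted p = 0.00563). In TD5 they were the CDK inhibitors CDKN1C (-0.91 ± 0.15, limma, adjusted p = 0.00102), CDKN1A (-0.71 ± 0.10, adjusted p = 0.000319) and CDKN2B (-0.59 ± 0.13, adjusted p = 0.00621). CCNE1 and E2F7 moved the same way in the other clones. CCNE1 had 214, 210 and 194 scaled reads in D11 and 207, 203 and 195 in TD5, all below every TPC1 library. E2F7 had 1261, 1287 and 1352 scaled reads in WB1 and 1276, 981 and 1194 in TD5, all above every TPC1 library.

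Genes of G2 and mitosis, which follow S phase, were examined as well. Of 55 tested, 31 rose and 1 fell in WB1 against TPC1, 23 rose and 1 fell in TD5, and 15 rose and 4 fell in D11. The shares higher were 56.4%, 41.8% and 27.3%, against 18.6%, 5.32% and 19.9% of all genes. The shares lower were 1.82%, 1.82% and 7.27%, against 12.3%, 6.57% and 13.4%. As for the other lists, these counts were made without the GC correction. Relative to the TPC1 mean their medians were 0.45, 0.21 and 0.18 in the libraries of WB1, whereas those of the S phase genes were 0.01, -0.26 and -0.19. WB1 replicate 1 was thus the highest WB1 library for both lists. Against D11, 8 of the 55 genes were higher and none lower in WB1 (14.5% and 0%, against 4.65% and 3.42% of all genes). In the same comparison 27 S phase genes were lower and none higher.

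**Figure D3:**
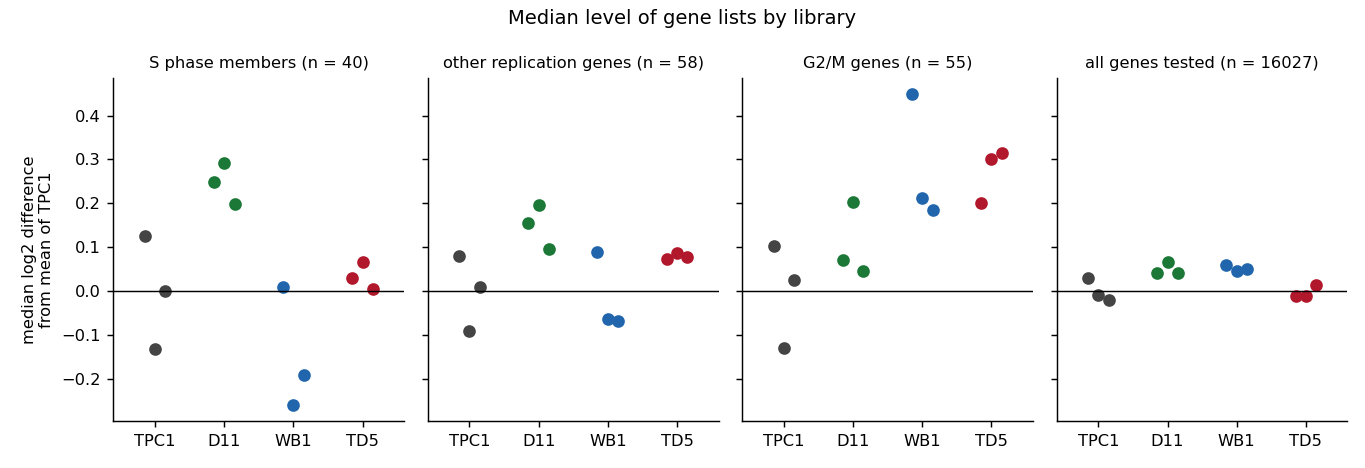
Median log2 difference from the TPC1 mean in each library (points) for the 40 S phase genes, 58 other replication genes, 55 genes of G2 and mitosis and all 16027 genes tested. D11 is highest for the S phase genes (0.20 to 0.29), and WB1 is below TPC1 replicate 2 in 2 libraries for the S phase genes but at 0.18 to 0.45 for the genes of G2 and mitosis.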

How the data were processed

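RNA-seq of 12 libraries, 3 each of TPC1, D11, WB1 and TD5, was analysed, with groups taken from the sample titles. The authors prepared stranded mRNA libraries and, per the submitters' processing notes, used STAR 2.5.3a, HTSeq 0.9.1 and GRCh38. The deposited values are gene reads that the authors scaled to 20000000 aligned reads and rounded up, so their unit is a score rather than counts, and library sums were 20009833 to 20014191. Depth was estimated from the whole numbers missing in 11 of 12 libraries, and from the likelihood of the values in the other. No column of another sample and no row without a gene was present.

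Values per 1000000 of the library sum were fitted as log2(value + 1) by limma (version 3.58.1, R version 4.3.3). The fit used all libraries with a mean for each line and let the prior variance follow the mean level. Because the values are scaled, this test was used in place of a count model. The filter, 1 per 1000000 or more in at least 3 libraries, left 16027 of 58302 genes. A gene was called at an adjusted p (Benjamini-Hochberg, over all genes tested in a comparison) under 0.05 in each of 6 comparisons. The members, the gene lists and the tests were chosen with earlier results of these data known. Values per library are given for MCM2-7 and PCNA, for members called with at least 1.5-fold in any comparison and for the 5 largest called changes against TPC1 in each clone. From the other replication and G1/S lists the 3 largest called changes in each clone are named, and RRM1, CDCA7, GMNN, SLBP, KRT8, PAX8 and other genes named by role or count fall outside that rule and were chosen after their values were seen. GC content and length came from GENCODE transcripts on GRCh38, and sequences from RefSeq. Simulated data were used to check the fit. Deviations from the line mean in same-numbered libraries of D11 and TD5 had positive correlations (r = 0.11, 0.17 and 0.35). Other pairs of lines had r of mixed or negative sign, for example -0.19, -0.13 and -0.13 for TPC1 and D11. Libraries of unlike number were not compared, so pairing was not tested. The main fit did not pair any libraries, and the replicate number entered as a block only among the alternatives. Alternatives changed the pseudocount (0.1 or 4), filter, scaling, GC or length correction, block, samples and fold minimum, and left out each library. Figures were drawn with matplotlib.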

Additional observations from a re-analysis of the deposited data

Results flagged for a closer look

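Each of the following stood out because clones that carry the same kind of DICER1 allele differed from each other, tested in the same limma fit. Between WB1 and D11, 27 of the 40 S phase genes were lower in WB1, against 3.42% of all genes, and 17 without D11 replicate 2 or WB1 replicate 2. Of these, CDC6 differed by -0.78 (log2), DTL by -0.78, UNG by -0.75, HELLS by -0.74, WDR76 by -0.65 and UHRF1 by -0.59. Between TD5 and D11, 14 genes were lower in TD5, with CLSPN at -0.59. Over all genes 14.8% were lower there, and the count was 5 with the GC correction (9.22% of all genes) and 4 without D11 replicate 2. Between TD5 and WB1, 16 genes were higher in TD5, against 4.52% of all genes, and the count was 5 with WB1 replicate 2 left out and 8 or 9 with TD5 replicate 2 or 1 left out.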

How the results depend on the processing

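No called change of a member reversed its direction under any alternative, and leaving out 1 library changed counts more than the pseudocount did. Without single libraries, members called higher in D11 than in TPC1 numbered 11 to 25, higher in WB1 0 to 2, lower in WB1 9 to 18, higher in TD5 0 to 1 and lower in TD5 0 to 3. Members lower in WB1 than in D11 numbered 17 to 32, lower in TD5 than in D11 4 to 17, and higher in TD5 than in WB1 5 to 16. With no filter on low values the counts were 13 higher in D11, 1 higher and 13 lower in WB1, 0 lower in TD5, 9 lower in TD5 than in D11 and 9 higher in TD5 than in WB1. With the GC correction they were 6 higher in D11, 0 higher and 22 lower in WB1, 3 higher in TD5 and 5 lower in TD5 than in D11. Median-of-ratios scaling and the length correction each gave 1 higher in TD5 and 16 higher in D11. With only the 2 lines compared, 0 were lower in TD5, 25 higher in D11, 20 lower in TD5 than in D11 and 11 higher in TD5 than in WB1. With a minimum of 1.5-fold the counts were 1 higher in D11, 0 higher and 1 lower in WB1, 0 lower in TD5, 6 lower in WB1 than in D11, 1 lower in TD5 than in D11 and 0 higher in TD5 than in WB1. DICER1 in D11 was -0.41 with the GC correction and -0.36 with the length correction, past the threshold in both. The cause of these changes was not tested.

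With the replicate number as a block, 21 genes were higher in D11 than in TPC1, 14 lower in WB1, 0 lower in TD5, 25 lower in WB1 than in D11, 16 lower in TD5 than in D11 and 15 higher in TD5 than in WB1. The block together with the GC correction, chosen after seeing the data, gave 6 higher in D11, 0 higher in WB1, 3 higher in TD5, 5 lower in TD5 than in D11 and 25 higher in TD5 than in WB1, with DICER1 in D11 at -0.41. The block with the length correction, also chosen later, gave 1 higher in TD5 and -0.36 for DICER1 in D11.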
